A study of Mus musculus with 81 samples.

Results

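The endocrine lineage was represented by 3 of 81 single cells from the pancreas of CD1 mouse embryos, wild type and at embryonic day 13.5. They were found by a rule on measured values: Chga or Neurog3 at 10 RPKM or more, where RPKM is a read count divided by transcript length and by library size, and each gene is read from the transcript row with the highest mean. Cells C24 and C56 passed on Chga, the gene of the granule protein chromogranin A, with 107 and 40.7 RPKM, and are called the hormone cells. Cell C91 passed on Neurog3, with 258 RPKM, and is called the Neurog3 cell. They were compared with the 6 other cells that had Epcam, an adhesion molecule of epithelia, at 10 RPKM or more (C13, C29, C43, C47, C82 and C95), and were set against the 72 remaining cells. The thresholds fell in wide gaps. The lowest Chga inside was 40.7 RPKM in C56 and the highest outside was 0.107 in C40. The highest Neurog3 outside was 0.386 RPKM in C96, and Epcam ran from 12.3 RPKM in C56, the lowest inside, to 0.630 in C46, the highest outside.

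All cells belong to 1 labelled group, untreated and dissociated with trypsin, and each was captured on a microfluidic device and made into its own library. The labels name no embryo, so all cells count as 1 sample, no test was made between them, and values are given cell by cell. Estimated depth was 3.44M reads in C24, 4.07M in C56 and 3.19M in C91, near the median of 3.51M in the remaining cells. Among the other Epcam cells it was 2.89M to 4.65M, apart from C43 with 0.418M. A gene is called listed at 0 where the file gives 0, since loss of a transcript during amplification cannot be told apart from its absence. In C91, 3 reads in a transcript of 1 kb equal 0.942 RPKM, and in C43 they equal 7.18.

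Pancreatic endocrine cells arise from the embryonic epithelium through a short-lived stage marked by Neurog3, a basic helix-loop-helix transcription factor. Neurog3 cells leave the epithelium while a cascade of further factors (Neurod1, Insm1, Pax4, Rfx6, Nkx2-2, then Pax6 and Isl1) sets up hormone production. The first hormone cells of the mouse pancreas make mostly glucagon, and many carry transcripts of several hormones. Factors of this helix-loop-helix class bind E-boxes, short sites with the letters CANNTG.

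The lineage, which was assigned by the rule and not by a label, was checked against 13 endocrine markers, of which Chga and Neurog3 were used to choose the cells. Of the 11 others C24 had 11 at 1 RPKM or more and C56 had 10, with Rfx6 listed at 0. C91 had 4 (Rfx6, Nkx2-2, Insm1 and Neurod1) and was listed at 0 for Chgb, Pyy, Pcsk2, Scg3, Pax6 and Isl1. The other Epcam cells had 1 or 2 and the remaining cells 0 to 4, with a median of 0.5. Of 5 epithelial markers besides Epcam, C24 had 5, C91 had 4 and C56 had 2. The other Epcam cells, which were chosen by Epcam, had 1 (C29) to 5 (C43 and C82), and the remaining cells had 0 or 1. Of 10 mesenchymal markers C24 had 4, C56 5 and C91 5, and their summed level was 113, 289 and 155 RPKM. In the other Epcam cells 2 (C13) to 8 (C47) were present, with sums from 66.7 RPKM in C82 to 470 in C29. In the remaining cells 0 to 9 were present, with a median sum of 465 RPKM. Lum and Meox2 were listed at 0 in all 3 cells and Pdgfra was at 0.406 RPKM or less, but C56 held Tcf21 at 156 RPKM, C24 held Pdgfrb at 31.5 and C91 held Wt1 at 23.4. Leukocyte markers were listed at 0 in C56 and C91, with 1 of 6 in C24, and the 5 red cell markers were listed at 0 in all 3. The part of transcripts from other cells in the results below was not tested.

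The region upstream of 4 of these genes is shown because the lineage's leading factor belongs to the class that reads E-boxes. The sequences are the 250 bases before the annotated start in RefSeq on GRCm38.p6, written 5′ to 3′ on the gene's strand. Capitals mark every match to CANNTG, which reads the same on both strands. Nkx2-2 (chr2:147186403-147186652, minus strand) and Rfx6 (chr10:51685268-51685517, plus strand) were highest in C91. Neurod1 (chr2:79456637-79456886, minus strand) and Gcg (chr2:62483654-62483903, minus strand) were highest in the hormone cells.
Nkx2-2: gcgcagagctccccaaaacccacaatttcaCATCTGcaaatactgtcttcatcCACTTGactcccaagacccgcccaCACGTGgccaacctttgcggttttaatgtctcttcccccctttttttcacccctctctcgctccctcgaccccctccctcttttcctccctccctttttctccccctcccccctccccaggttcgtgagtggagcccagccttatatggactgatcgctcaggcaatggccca
Rfx6: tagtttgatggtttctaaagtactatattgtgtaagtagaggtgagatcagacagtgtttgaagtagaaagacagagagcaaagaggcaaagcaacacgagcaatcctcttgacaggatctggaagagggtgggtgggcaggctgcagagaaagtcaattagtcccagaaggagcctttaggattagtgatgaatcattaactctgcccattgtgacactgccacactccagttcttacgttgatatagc
Neurod1: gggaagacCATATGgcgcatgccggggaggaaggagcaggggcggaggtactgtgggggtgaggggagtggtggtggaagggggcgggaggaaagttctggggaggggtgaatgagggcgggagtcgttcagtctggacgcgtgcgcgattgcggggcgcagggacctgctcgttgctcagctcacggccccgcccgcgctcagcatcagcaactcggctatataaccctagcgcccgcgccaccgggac
Gcg: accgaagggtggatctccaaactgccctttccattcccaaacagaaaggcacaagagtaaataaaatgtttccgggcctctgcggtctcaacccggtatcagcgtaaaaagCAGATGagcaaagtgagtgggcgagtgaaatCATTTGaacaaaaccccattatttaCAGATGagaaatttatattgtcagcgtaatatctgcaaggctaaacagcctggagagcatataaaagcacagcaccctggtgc
The Nkx2-2 window holds 3 matches, Neurod1 1, Gcg 3 and Rfx6 0. Across 32851 RefSeq promoter windows of the same length 66.2% hold at least 1, so a match is common. The narrower letters CAGATG, or CATCTG on the other strand, stand in 14.4% of all windows, and they occur once in the Nkx2-2 window and at 2 places in the Gcg window. These matches are descriptions of the letters and show no binding.

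Among the early transcription factors Neurog3, Pax4 and Rfx6 stood highest in the Neurog3 cell, whereas Insm1 and Neurod1 did not. Neurog3, on chromosome 10 (mm9 61595838 to 61597511), was at 258 RPKM in C91, which is an estimated 1266 reads, at 0.158 in C56 and listed at 0 in C24 and in the 6 other Epcam cells. Pax4, a paired-homeobox factor of the beta and delta cell branch, was at 18.6 RPKM in C91, an estimated 81 reads, and was listed at 0 in all 80 other cells. Rfx6, a winged-helix factor of islet development, was at 174 RPKM in C91, 34.5 in C24 and listed at 0 in C56, and its highest value among the other Epcam cells was 0.208. Neurog3 was used to choose C91. Pax4 and Rfx6 were not, and C91 stood above every other Epcam cell for both, with Rfx6 also present in 1 of the hormone cells.

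Nkx2-2 and Insm1 joined all 3 cells. Nkx2-2, a homeobox factor of the whole lineage, was at 68.6 RPKM in C91 and at 23.9 in C24 and 28.2 in C56. In the other Epcam cells it was at 4.65 in C43, 3.18 in C82, 2.25 in C95, 0.105 in C47 and listed at 0 in C13 and C29. Insm1, a zinc-finger repressor needed for endocrine differentiation, was at 32.3 RPKM in C91, 39.5 in C24 and 6.48 in C56, and listed at 0 in all 6 other Epcam cells. Outside these, 1 of 72 remaining cells had it, C45 with 42.1 RPKM. C45 shares a library index with C91 but stands above it. Neurod1, the helix-loop-helix factor that follows Neurog3, was at 36.8 and 40.5 RPKM in the hormone cells and at 2.87 in C91, an estimated 25 reads, with 0 listed in the other Epcam cells. It was the clearest case among the factors of a level in C91 between the groups.

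**Figure D1:**
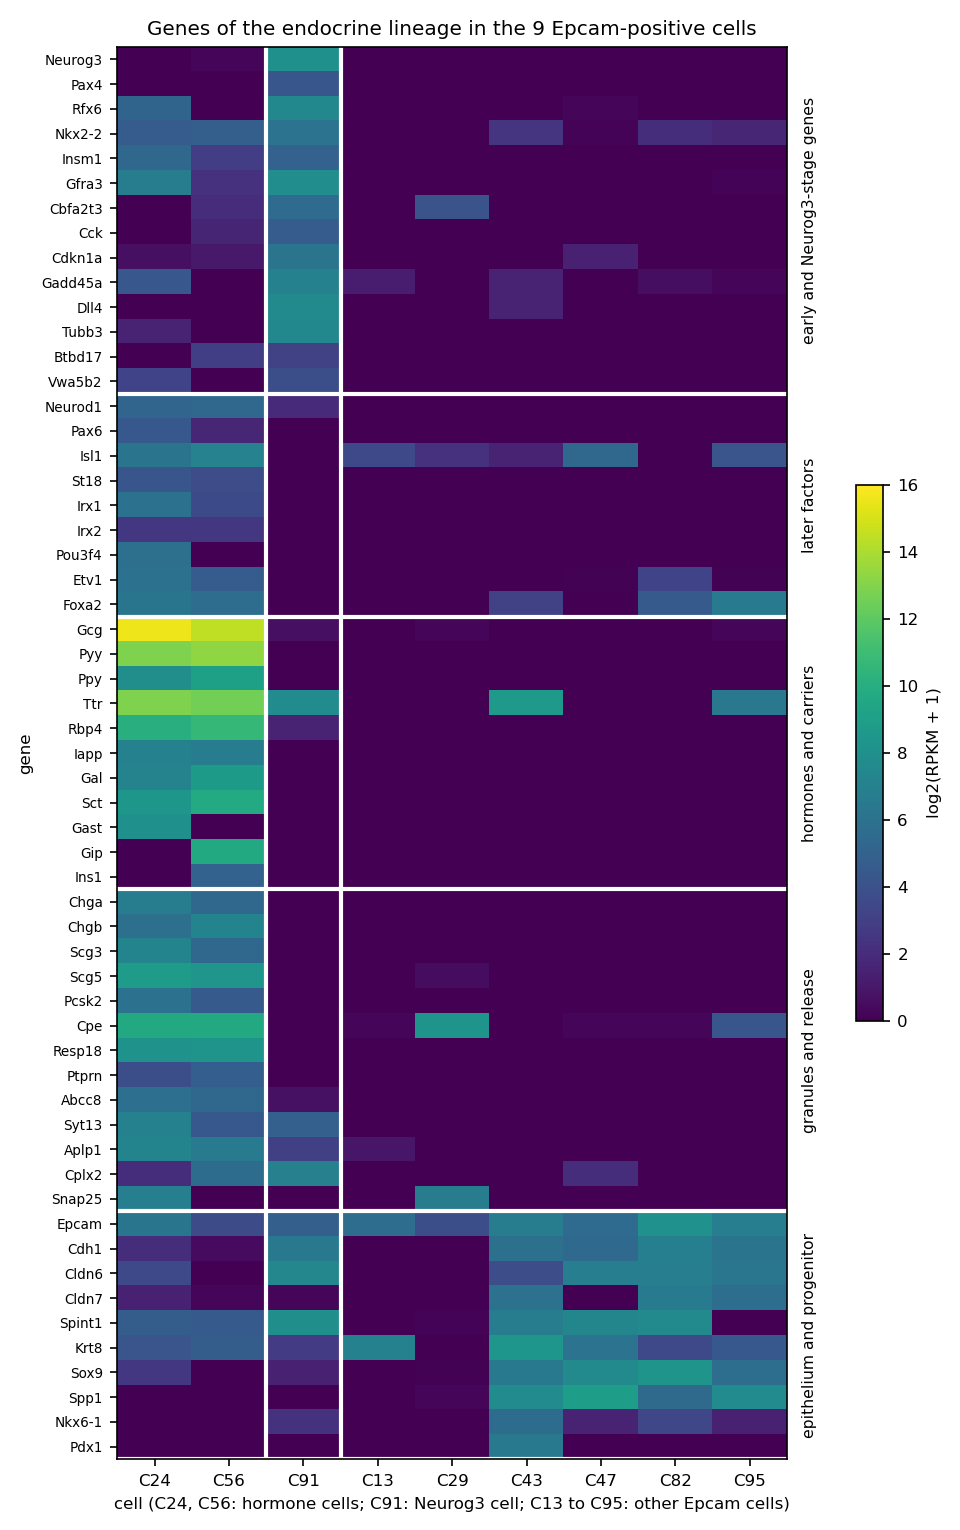
Level of each gene (rows, grouped by role) in each Epcam-positive cell (columns), as log2(RPKM + 1) on the color scale. The early genes are bright in C91. The later factors (with Neurod1 grouped among them), hormones and granule genes are bright in C24, C56 or both, with Gcg at 48647 and 22613 RPKM.

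Of the later factors, Isl1, Pax6, St18, Irx1, Irx2 and Etv1 were in both hormone cells and listed at 0 in the Neurog3 cell. Isl1, a LIM homeobox factor, was at 70.1 RPKM in C24 and 133 in C56. Isl1 was also at 40.7 RPKM in C47 and 17.6 in C95, below both hormone cells. Pax6 was at 20.5 RPKM in C24 and 2.26 in C56. St18 was at 18.7 and 12.6 RPKM, Irx1 at 64.6 and 11.3, Irx2 at 4.93 and 5.01, and Etv1 at 65.8 and 24.6. C91 was listed at 0 for each of these genes. Foxa2, a forkhead factor of all foregut epithelium, was at 72.4 and 52.5 RPKM in the hormone cells and listed at 0 in C91, but C95 had 101, so the groups overlapped. Pou3f4 was at 59.9 RPKM in C24 alone of the 81 cells. Mafa, Fev, Lmx1b, Mnx1, Glis3 and Neurod2 were under 1 RPKM in all 9 compared cells.

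A gene was counted as set apart where both hormone cells lay above, or both below, every other Epcam cell and the difference of means was at least 1 unit on the log2(RPKM + 1) scale. Of 10758 genes at 1 RPKM or more in at least 1 of these 8 cells, 690 were set apart (6.41%), 544 of them higher (5.06%) and 146 lower (1.36%), with a median difference of -0.19 over all genes tested. The split has no test, and a gene that passed the filter only through the hormone cells could be higher but not lower. With 1 hormone cell the counts were larger, 1680 higher and 357 lower without C56 and 1567 and 375 without C24, and 309 were lower without C13. Among the 31 endocrine transcription factors, of which 21 passed the filter, 11 were higher and 0 lower, with a median of 2.96. C91 lay at the hormone cells for 2 of the 11 (Insm1 and Nkx2-2), between the groups for Neurod1, and at the other Epcam cells for 8. The count for this list was between 8 and 14 under all settings tried.

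Of the 22 genes described around the Neurog3 stage 20 passed the filter, and 1 was higher and 1 lower in the hormone cells. The share of higher genes is near that over all genes tested (5.06%). That of lower genes rests on 1 gene, against 1.36% over all genes tested, so it cannot be compared. Without C56 the counts were 5 and 5, and without C24 3 and 2. The lower genes were 2 without C13 or C43 and 3 without C47. C91 had 17 of the 22 at 1 RPKM or more, the most of all 81 cells. C56 had 13, C24 9, the other Epcam cells 8 to 12 and the remaining cells 4 to 11. The list was put together with earlier results of these cells known, so its count in C91 is a description. Of its genes 4 were at least 1 log2 unit above all other compared cells in C91, against 4.93% over all genes tested. Cdkn1a, the gene of the cell cycle inhibitor p21, was at 71.4 RPKM in C91 and at no more than 1.79 in the other 8. Gadd45a, a growth-arrest gene, was at 130 RPKM in C91 and 19.6 in C24. It was at 1 RPKM or more in 16 of the 66 cells that share no index with C91, up to 76.3. Cbfa2t3, a transcriptional corepressor, was at 47.2 RPKM in C91, 16 in C29 and 3.02 in C56. Cck, the gene of the peptide cholecystokinin, was at 24 RPKM in C91, an estimated 53 reads, at 2.11 in C56 and listed at 0 in all other 79 cells. Btbd17 was at 7.57 RPKM in C91 and 6.96 in C56, and Vwa5b2 at 13.4 in C91 and 8.42 in C24, with 0 listed in the other compared cells. Tead2, a Hippo pathway factor, was at 55.3 RPKM in C91 and at 0 in both hormone cells, against 23.3 to 182 in 5 of the other Epcam cells. Cdkn1c, the gene of the inhibitor p57, was at 1656 RPKM in C91, at 138 in C24 and 312 in C56, and at 341 to 1689 in the others.

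**Figure D2:**
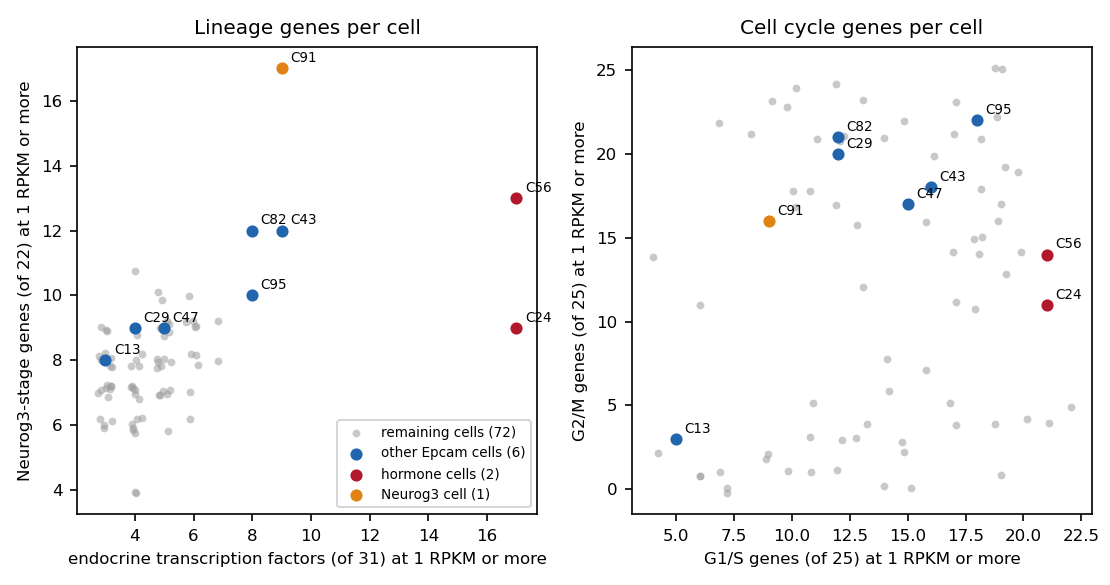
Each point is 1 cell, placed by how many genes of a list it had at 1 RPKM or more, with a small random offset for the 72 remaining cells. On the left C91 has the most Neurog3-stage genes (17) and C24 and C56 the most endocrine transcription factors (17 each), and on the right the hormone cells have 21 of 25 G1/S genes.

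Signalling genes of the Neurog3 cell included a receptor and a Notch ligand. Gfra3, a coreceptor of the glial cell line-derived factor family, was at 224 RPKM in C91, 111 in C24 and 3.76 in C56, and at 0.109 or less in the other Epcam cells. No remaining cell exceeded 0.220 RPKM, so Gfra3 at 1 RPKM or more was found in the 3 endocrine-lineage cells and in no other. Dll4, a membrane ligand of Notch receptors, was at 202 RPKM in C91, an estimated 2411 reads, at 2.06 in C43 and listed at 0 in the other 7 compared cells. Dll1, the ligand usually described for Neurog3 cells, was under 1 RPKM in all 9. Rbpj, the DNA-binding partner of Notch, was at 71.7 RPKM in C91, at 0 and 0.134 in the hormone cells and at 0 to 11.2 in the others. Of the 50-base windows of Rbpj 23.8% occur in transcripts of other genes, so its level is uncertain. Notch2 was set apart lower in the hormone cells, at 1.37 and 2.42 RPKM against 8.68 to 40.8, with C91 at 9.79. Of 18 Notch genes 14 passed the filter and Notch2 was the only one set apart, against 1.36% lower over all genes tested. The list median was -0.41. The median was -0.91 without C24, -0.71 without C29, -0.82 without C43 and -0.27 without C56. Of the lower genes there were 2 without C56 and 3 without C13, and 2 genes were higher without C24 or C56. Hes1, a Notch target, was at 55.1 RPKM in C91, 25.3 in C24 and 32.3 in C56, inside the range of the others (0 to 203).

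Another transcript of C91 alone was Mir7-2, which was chosen after its values had been seen. It hosts miR-7a, a microRNA known for its abundance in endocrine cells. The row is 97 bases long (mm9 chromosome 7, 86033163 to 86033259) and was at 70.5 RPKM in C91, an estimated 22 reads, and listed at 0 in all other 80 cells. These libraries do not capture mature microRNAs, so the reads are of a longer transcript over the hairpin. The mature sequence of the 5′ arm in RefSeq is shown to identify it, with the seed (bases 2 to 8) in capitals.
miR-7a-5p: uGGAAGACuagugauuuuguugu

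The hormone cells were rich in transcripts of several hormones at once. Gcg, the gene of proglucagon on chromosome 2 (mm9 62312587 to 62321710), made up 14% of the summed RPKM of C24 and 6.63% of C56. Ppy, the gene of pancreatic polypeptide, was at 234 RPKM in C24 and 536 in C56, Gal (galanin) at 142 and 421, Sct (secretin) at 355 and 878, and Iapp (islet amyloid polypeptide) at 128 and 106. All were listed at 0 in C91 and in the other Epcam cells. Rbp4, the plasma carrier of retinol, was at 1067 and 1642 RPKM, at 2.01 in C91 (an estimated 6 reads) and at 0 in the others. The hormone cells also differed from each other. C24 had Gast (gastrin) at 257 RPKM with Gip listed at 0, whereas C56 had Gip (the incretin gastric inhibitory polypeptide) at 857, Ins1 (insulin) at 31.8, Ghrl (ghrelin) at 2.30, with Gast listed at 0. Ins2, Sst, Nts, Tac1, Npy and Vip were under 1 RPKM in all 9 cells. Of 18 hormone and carrier genes 12 passed the filter and 8 were higher in the hormone cells, against 5.06% over all genes tested. The list median was 8.21, and C91 lay between the groups for 2 (Gcg and Rbp4) and at the other Epcam cells for 6. Those 2 places rest on an estimated 2 reads of Gcg and 6 of Rbp4, and Gcg reached 0.718 RPKM in a cell that shares no index with the hormone cells.

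The value of Gcg in C91, 0.570 RPKM, is an estimated 2 reads and was read as nothing more than that. Among the 28 cells that shared the first or the second library index with C24 or C56, 15 had Pyy, the gene of peptide YY, at 1 RPKM or more, with at most 6.52. That is 0.0627% of the highest hormone cell, and of the 51 cells sharing no index 0 reached 1 RPKM. The part of index exchange in such low values was not tested. C91 shares no index with C24 or C56, and neither do the 6 other Epcam cells. Ttr, the gene of the thyroid hormone and retinol carrier transthyretin, was at 1 RPKM or more in 12 of the 28 cells, with at most 4.94, and in 3 of the 51. Those 3 were C91 with 208 RPKM, C43 with 388 and C95 with 82.2, and they share a second index with one another. C91 shares an index with 14 cells, among them C43, C47 and C95 by the second index. Pax4, Cck and Tubb3 were listed at 0 in all 14, Neurog3 was at 0.386 RPKM or less there and Gfra3 at 0.220 or less.

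**Figure D3:**
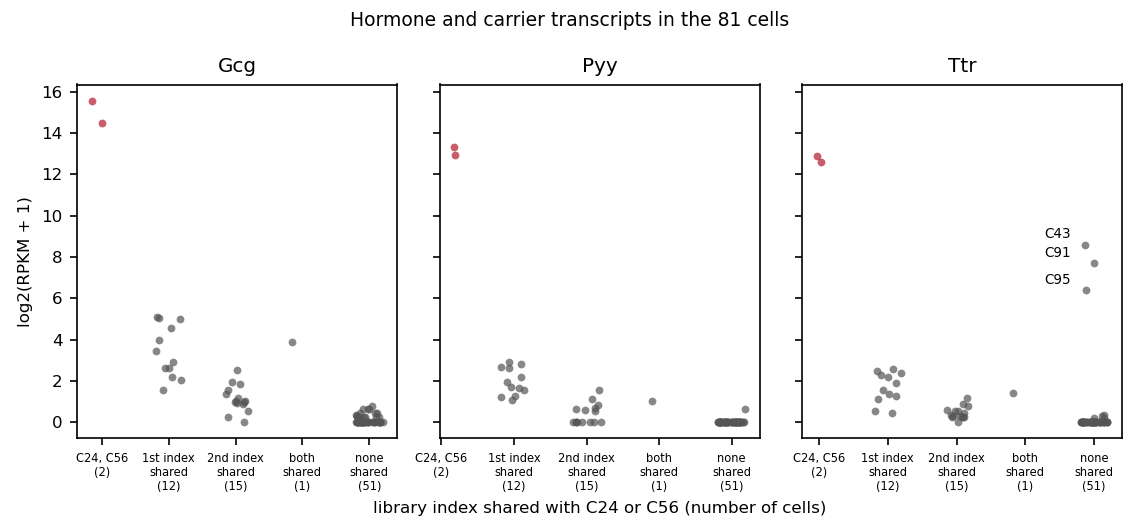
Level of Gcg, Pyy and Ttr (log2(RPKM + 1)) in each of the 81 cells, grouped by the library index shared with C24 or C56. Low Gcg, Pyy and Ttr values appear in cells that share an index, and Ttr is at 82.2 to 388 RPKM in C91, C43 and C95, which share no index with C24 or C56 but share a second index with one another.

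Granule genes were higher in the hormone cells for 10 of 18, of which 16 passed the filter, against 5.06% over all genes tested. The list median was 3.84, and C91 lay at the other Epcam cells for all 10. Chga is among them and was used to choose the cells. C91 had 2 of the 18 genes at 1 RPKM or more, Pam at 4.39 and Secisbp2l at 4.80, against 15 in C24, 9 in C56 and 0 to 3 in the remaining cells. Scg5, a chaperone of the prohormone convertase, was at 436 RPKM in C24 and 324 in C56, and Resp18 at 279 and 306. Chgb (chromogranin B) was at 58 and 149 RPKM, Scg3 (secretogranin III) at 149 and 39.2, Pcsk2 (the convertase that releases glucagon) at 61.5 and 21.7, and Ptprn (a granule membrane phosphatase homolog) at 13.3 and 26. Among these 6 genes the highest value in any other Epcam cell was 0.417 RPKM, for Scg5 in C29. Cpe, the carboxypeptidase that trims prohormones, was at 843 and 838 RPKM in the hormone cells, but C29 had 309 and C95 18.3. Scgn was at 54 RPKM in C24 and listed at 0 in C56, and Slc30a8, the granule zinc transporter, was under 1 RPKM in all 9 cells.

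Genes of excitability and vesicle release were less uniform. Of 30 genes 22 passed the filter and 6 were higher in the hormone cells, against 5.06% over all genes tested. The list median was 1.91, and 11 genes were higher without C24. Abcc8, the sulfonylurea receptor of the potassium channel, was at 56.7 and 39.3 RPKM, and at 0.628 in C91. Its partner Kcnj11 was at 3.89 RPKM in C56 but at 8.94 in C82, so it overlapped. Syt13, a synaptotagmin, was at 129 RPKM in C24 and 20.4 in C56 and at 28.8 in C91, the only one of the 6 for which C91 reached the hormone cells. Aplp1, a homolog of the amyloid precursor protein, was at 146 and 99.7 RPKM, at 7.15 in C91 and at 0.985 or less in the others. Cplx2, a complexin of the fusion machinery, was highest in C91, at 125 RPKM, against 3.28 and 48.7 in C24 and C56 and 3.30 in C47. Snap25, a membrane fusion protein, was at 112 RPKM in C24 and 103 in C29 and listed at 0 in C56 and C91. The solute carrier Slc38a5, a glutamine transporter, was at 3986 and 3807 RPKM, at 6.44 in C43 and listed at 0 in C91. Gipr, the receptor for Gip, was at 5.97 and 6.19 RPKM in the hormone cells, and Gpr119, a lipid-sensing receptor, was at 52.7 in C56 alone of the 81 cells.

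**Figure D4:**
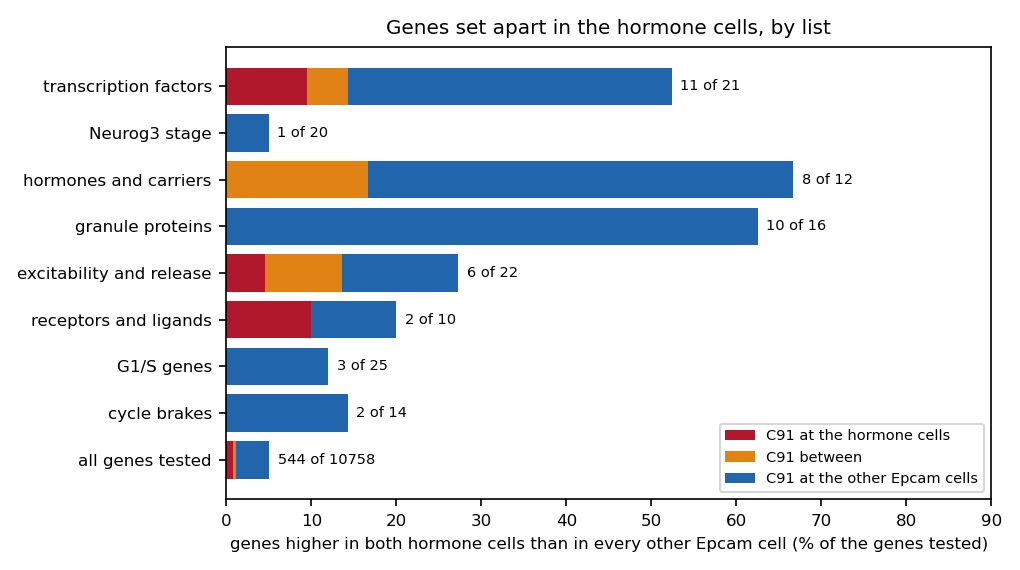
Share of the tested genes of each list that were higher in both hormone cells than in every other Epcam cell, with the counts beside the bars and the colors giving the place of C91. The share is 5.06% over all genes tested, and granule genes (10 of 16) lie with C91 at the other Epcam cells throughout. The hormone genes with C91 between include Gcg, which rests on an estimated 2 reads in C91.

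Some epithelial transcripts (Cdh1, Cldn6 and Spint1) were higher in the Neurog3 cell than in the hormone cells, but others were not, and C24 had more of the epithelial genes. At 1 RPKM or more were 13 of 30 in C24, 11 in C91 and 7 in C56. Cdh1, the gene of E-cadherin, was at 86 RPKM in C91, at 3.27 in C24 and 0.384 in C56, and at 43.2 to 119 in C43, C47, C82 and C95. C13 and C29 were listed at 0 for Cdh1, so these 2 cells met the Epcam rule without it. Cldn6, a tight junction claudin, was at 167 RPKM in C91, 10.5 in C24 and 0 in C56, and Spint1, a protease inhibitor of epithelia, at 254, 25.2 and 21.8. Cldn3 and Cldn7 were at 0.237 RPKM or less in C91. The 5 epithelial markers besides Epcam summed to 288 RPKM in C91, 198 in C56 and 43 in C24. Cdh1 and Cldn6 made up most of the sum in C91, whereas in C56 nearly all of it came from the other 3, Krt8, Krt18 and Cldn7. With Epcam the sums were 316, 211 and 115 RPKM, so Epcam itself was higher in C24 than in C91. Of 30 epithelial genes 25 passed the filter and 0 were set apart in the hormone cells, with a median of -0.67. It was -1.03 with 1 lower without C24, and 2 genes were higher without C56. Among progenitor genes, Sox9, a factor of the ductal and progenitor epithelium, was at 1.8 RPKM in C91, 5.02 in C24 and 0 in C56, against 53.7 to 307 in C43, C47, C82 and C95. Spp1 (osteopontin) was listed at 0 in all 3 endocrine-lineage cells and was at 45.3 to 502 RPKM in those 4 cells. Pdx1 was found in C43 only, at 86.9 RPKM. Krt19, a keratin of ducts, was at 24 RPKM in C91 and listed at 0 in the other 8. Because C13 and C29 lacked Sox9 and Spp1 as well, with 0.178 RPKM at most, the groups overlapped for these genes and 0 of 26 progenitor genes were set apart (16 past the filter, median -1.17).

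Genes of epithelial to mesenchymal transition were mixed. Snai1, a repressor of Cdh1, was at 101 RPKM in C91, 35.8 in C56, 0 in C24 and no more than 1.48 in the other Epcam cells, but 24 of the 72 remaining cells had it, up to 240. Fn1 (fibronectin) was at 33.1 RPKM in C91 and 12.3 in C47. Of 10 such genes 9 passed the filter and 0 were set apart, with a median of 0.10. That median was -1.06 without C24, with 1 gene higher, and -0.38 without C56, with 2 higher. It was 0.62 without C82, 0.35 with 1 lower without C95, and 1 gene was higher without C29. Tubb3, a tubulin of neurons, was at 178 RPKM in C91 and 2.01 in C24 and at no more than 0.414 in any remaining cell. C91 had 3 of 14 neural genes at 1 RPKM or more, Tubb3, Gap43 at 40.9 and Dcx at 3.15, and the remaining cells had 0 to 7. Gap43 was also at 141 RPKM in C47 and 123 in C29 and Dcx at 11.9 in C43, and Sox10 and Elavl3 were listed at 0 in C91.

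More G1/S genes were present in each hormone cell than in the Neurog3 cell. Of 25 G1/S genes, both hormone cells had 21 at 1 RPKM or more, C91 had 9 and the other Epcam cells 5 to 18. Mcm5, a subunit of the replication helicase, was at 60 RPKM in C24 and 71.6 in C56 and at 0.0908 in C91. Cdc6, which loads that helicase, was at 6.19 and 24.3 RPKM and listed at 0 in C91, and Ung (uracil glycosylase) was at 79.5 and 11.2 and listed at 0 in C91. These 3 genes were set apart, against 5.06% higher over all genes tested, with a list median of 1.32 that was 0.52 without C13. Without C24 there were 5 higher and 2 lower, and 5 were higher without C56 or C95. Without the other Epcam cells that share an index with C91 there were 9 higher. The remaining cells had 4 to 22 of the 25. Of 25 G2/M genes C91 had 16, C24 11 and C56 14. In the hormone cells 0 were higher and 2 lower (Nusap1 and Cdca3), against 1.36% lower over all genes tested. The list median was -1.57. It was -0.76 with 1 higher without C24, -2.16 with 1 higher and 3 lower without C56, and -1.07 without C82. There were 3 lower without C13 or C95, and 1 higher without C47. C91 had Top2a (topoisomerase II alpha) at 387 RPKM, the kinase gene Aurkb at 244, Cdca8 at 385, Ccna2 (cyclin A2) at 171 and the checkpoint kinase gene Bub1 at 86.4, each at least 1 log2 unit above the other compared cells. These are 5 of the 25, against 4.93% over all genes tested. The count depended on the setting: 0 at a difference of 2 log2 units, 3 with the same upper quartile in each cell and 8 with Epcam at 50 RPKM or more. Cdk1 and Ccnb2 were at 0.109 and 0.202 RPKM in C91, so not all mitotic genes were present. Among brakes of the cycle, Rb1 (the retinoblastoma gene) was at 24.9 and 51.5 RPKM in the hormone cells and listed at 0 in C91 and the other Epcam cells. Cdkn1b, the gene of p27, was at 19.2 and 21.7 RPKM in the hormone cells, 0.129 in C91 and at most 3.49 in the others. Cdkn1a, high in C91, was at 0.603 and 1.14 RPKM in the hormone cells.

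Gene by gene, the Neurog3 cell lay with the other Epcam cells more often than with the hormone cells. Of the 544 genes higher in the hormone cells, C91 reached the lower hormone cell for 82 (15.1%), lay between for 42 (7.72%) and was within or below the other Epcam cells for 420 (77.2%). The first share was 9.96% without C24 and 9.58% without C56. Of the 146 lower genes it was at the hormone cells for 45 (30.8%), between for 16 and at the other Epcam cells for 85 (58.2%). The same count of the higher genes in the 72 remaining cells ranged from 34 to 106 with a median of 65.5, and 6 of them had at least the 82 of C91. C91 was above every other Epcam cell for 124 of the higher genes, and the remaining cells for 59 to 172. Each remaining cell thus also lay at the other Epcam cells for most of the higher genes, so the 77.2% is no mark of C91. For the lower genes the count at the hormone cells ranged from 27 to 81 with a median of 53, and 54 cells had at least 45. Over all genes the position of C91 was therefore inside the range of cells outside the lineage. The 3 cells together were above every other Epcam cell for 128 of 10967 genes (1.17%) and below for 59 (0.538%), and with a remaining cell in the place of C91 the first count was 61 to 184. C91 was the lowest of the compared cells for 40 genes (0.365%).

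**Figure D5:**
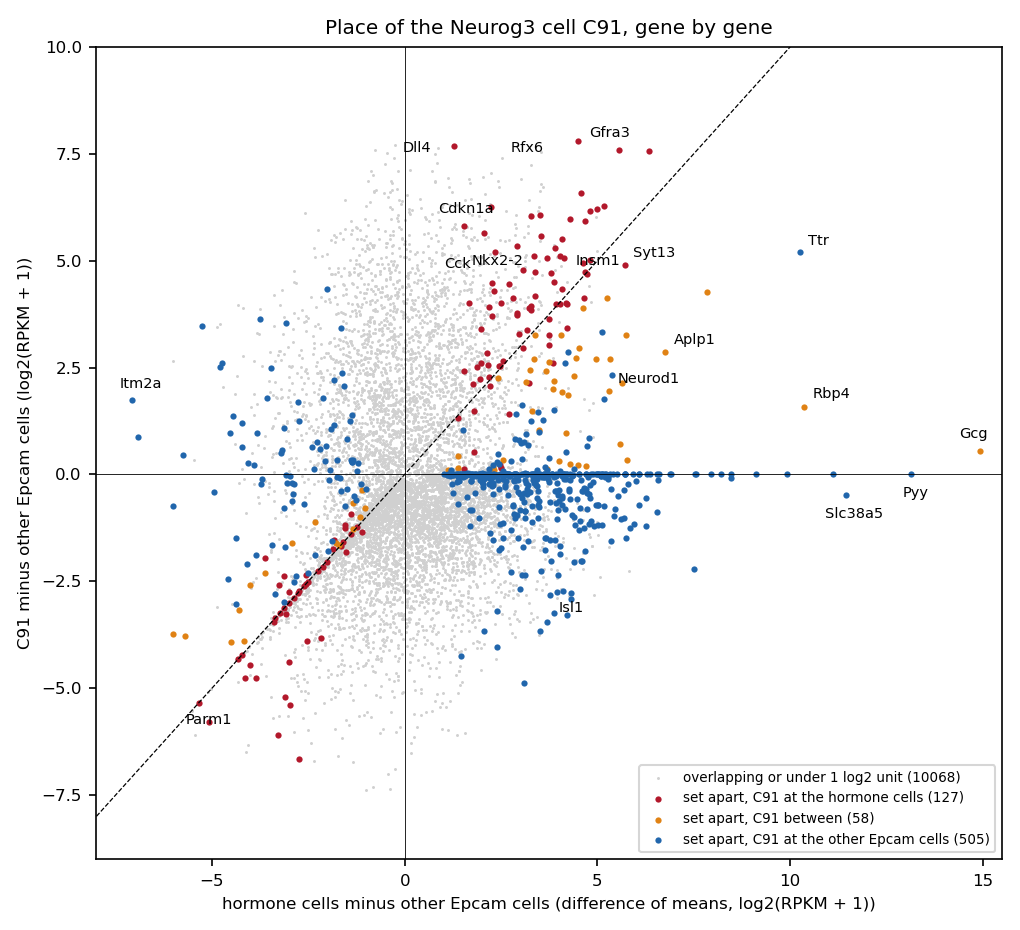
Each point is 1 of 10758 genes, with the difference of the hormone cells from the other Epcam cells (horizontal) and of C91 from the other Epcam cells (vertical), both on the log2(RPKM + 1) scale, and a dashed line where both are equal. Most of the genes set apart on the right lie on or below the line of 0 (C91 at the other Epcam cells), while Gfra3, Syt13, Insm1 and Nkx2-2 lie with the hormone cells.

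A further 541 of 10967 genes (4.93%) were highest in C91, at 10 RPKM or more and at least 1 log2 unit above every other compared cell. The other 8 compared cells had 490 to 694 such genes each, so the number is no mark of C91. The largest gaps outside the lists were for Ttll6 (a tubulin-modifying enzyme) at 187 RPKM and Klk11 (a kallikrein-related peptidase) at 127, both listed at 0 in all other 80 cells. A430105I19Rik was at 90.2 RPKM, with 0.214 at most in any other cell. The other 12 genes with the largest gaps also occurred in remaining cells. These are Tmem159, Mterfd3, Rasl11b, Tlcd2, Atp5s, Rnu12, Zfp354b, Tmem68, Ntf3, Zfp647, Sfxn3 and Kif2c. Ntf3 (neurotrophin 3), for example, was at 141 RPKM in C91 and up to 186 in 18 remaining cells, and Kif2c (a mitotic kinesin) at 307 in C91 and up to 142 in 20.

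Outside the lists the genes highest in the hormone cells were mostly listed at 0 in C91. Fgb (fibrinogen beta chain) was at 131 RPKM in C24 and 267 in C56, Sgk2 (a serum and glucocorticoid regulated kinase) at 150 and 94.7, Slc14a2 (a urea transporter) at 53.8 and 173, and Akr1c12 (an aldo-keto reductase) at 42.2 and 158. All 4 were listed at 0 in the 7 other compared cells and were at no more than 0.662 RPKM in any remaining cell. Fam183b was at 890 and 1053 RPKM and listed at 0 in C91. Dbpht2 was at 209 and 253 RPKM, at 18.3 in C91 and at no more than 0.272 in any other cell. 2310015B20Rik was at 175 and 36.6 RPKM in the hormone cells and at 187 in C91. Cdc25b, a phosphatase that activates cyclin-dependent kinases, was at 102 and 129 RPKM and at 0.103 in C91, and Gmnn, the licensing inhibitor geminin, at 134 and 231 with 0 listed in C91. The others of the 12 were 1700086L19Rik, Tmsb15b2 and 4930455F23Rik.

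Most of the genes lowest in the hormone cells were present in the Neurog3 cell. Itm2a was at 2.13 RPKM in C24 and 0.889 in C56, at 1090 in C91 and at 58.3 to 720 in the other Epcam cells. Smarcb1, a subunit of the SWI/SNF chromatin remodeler, was at 0 and 0.294 RPKM in the hormone cells, 252 in C91 and 19 to 372 in the others. Scd2 (a fatty acid desaturase) was at 50.9 RPKM in C91, the imprinted H19 RNA at 279, Plagl1 (an imprinted zinc-finger gene) at 634, the homeobox gene Meis1 at 56.7 and the ligand gene Wnt5a at 171. In the hormone cells those 5 genes were at no more than 5.98 RPKM. H19, Plagl1, Meis1 and Itm2a were also present in 69 to 71 of the 72 remaining cells. In contrast, Srpk1 (a splicing factor kinase) was at 0.127 RPKM in C91, 1.53 in C24 and 0.393 in C56 against 12.8 to 210 in the others, and Parm1 was listed at 0 in all 3 lineage cells against 4.51 to 241. Ldha (lactate dehydrogenase A) and Smc1a (a cohesin subunit) lay between the groups in C91, at 4.21 and 6.5 RPKM. Ppap2c was at 3.40 RPKM in C91 and listed at 0 in both hormone cells, with the other Epcam cells at 0.133 to 333.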

How the data were processed

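The deposited table holds values of 29510 transcript rows (22869 gene symbols) in 81 cells with mm9 coordinates. CASAVA 1.8.2 and mm9 come from the submitters' processing notes. The aligner, the counting tool and any strand setting were not given in the sources used here. No header names the unit, and RPKM scaling by the authors was inferred, since multiplying deposited values by length gives whole reads: a median of 81.3% of low values per cell were within 0.15 of a whole number. Lengths came from GENCODE vM21, and promoter and microRNA sequences from RefSeq on GRCm38.p6, never mixed with mm9 coordinates. The worth of 1 read gave the estimated depth and reads.

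Values were put on the log2(RPKM + 1) scale, which understates differences of low genes, with Python 3.11.15 and pandas 2.3.3. The counting steps were run on simulated data with genes set apart by construction. That checks the steps and not how often a gene is set apart by chance. Genes named are up to 8 per list with the largest differences, and outside the lists 12 higher, 12 lower and 15 of C91. Some items are not reported here. The members and lists were chosen with earlier results of these data known. Doublets were not called. Intervals were not given because cells are 1 sample.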

Additional observations from a re-analysis of the deposited data

How the results depend on the processing

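Each count was recomputed under 12 other settings, 8 that leave out 1 cell and 1 chosen after seeing the data. The 544 higher genes became 358 with a pseudocount of 10 RPKM. With Epcam at 50 RPKM or more (4 other cells) there were 824 higher and 258 lower genes, and C91 lay at the hormone cells for 19.5% of the higher. Without the 3 other Epcam cells that share an index with C91 there were 1136 higher and 438 lower genes, with C91 at the hormone cells for 23.1% and 44.3%. With only the 4 other cells that have Cdh1 at 10 RPKM or more, chosen after seeing the data, the lower genes were 447, with C91 at the hormone cells for 40.5%. At a difference of 2 log2 units C91 was highest for 310 genes. Fewer cells in a group make a lack of overlap easier, by construction. Leaving out 1 cell gave 602 to 1680 higher genes, the most without C56 and 1567 without C24, and 186 to 375 lower genes, the most without C24, with 357 without C56 and 309 without C13. C91 lay at the hormone cells for 9.58% to 17.7% of the higher and 23.5% to 37.5% of the lower, and was highest for 584 to 613 genes. Scaling cells to the same upper quartile moved the median difference of all genes from -0.19 to -0.005. Without the cells that share an index with C91 it was 0.28. The causes were not tested. Of 714 differences of 34 named genes recomputed, 0 changed sign. In these genes the hormone cells and the other Epcam cells do not overlap. Leaving out cells or changing the pseudocount, filter or cutoff could therefore not reverse a sign, so the 0 is no measure of stability. No paired analysis was possible because the labels give 1 group and no shared replicate numbers. C43, with 0.418M reads, limits what a 0 in it can show, and each statement on the hormone cells rests on 2 cells and on C91 on 1.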
